A study of Mus musculus with 8 samples.

Results

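The Wnt genes of mouse skin described here are 47 genes, of 55418 genes measured in each library. They were chosen by name: every gene whose symbol is Wnt, Fzd, Dkk or Sfrp followed by a number, together with Wif1, Lrp5, Lrp6, Ctnnb1, Lef1, Tcf7, Axin1, Axin2, Nkd1 and Nkd2. By role they are 19 ligands, 10 Frizzled receptors, 2 coreceptors, 9 secreted inhibitors, 4 cytoplasmic inhibitors and 3 effectors. The rule uses names and no measured value, though the genes were chosen with earlier results of these data known. RNA of whole skin was sequenced from mice called hairloss, which carry a spontaneous mutation, and from wildtype mice, at postnatal days 0, 16, 19 and 28. There was 1 library for each genotype and day, 8 in all, and the mutated gene, the strain, the body site and the number of animals behind a library are not stated in the sources used here. The study's title places its interest in keratins and keratin associated proteins, so the Wnt genes are set out here beside them.

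Wnt ligands are secreted, lipid-modified proteins that bind Frizzled receptors together with the coreceptors Lrp5 or Lrp6. In the canonical pathway this binding stops a cytoplasmic complex built on Axin from destroying beta-catenin, the product of Ctnnb1, which then enters the nucleus and acts with the DNA-binding factors Lef1 and Tcf7. Dickkopf proteins such as Dkk1 and Dkk2 bind the coreceptors, while secreted Frizzled-related proteins and Wif1 bind the ligands. In skin the pathway is needed to form hair follicles and to restart them after rest, and Lef1 is known for its place in the matrix and precortex of the growing hair bulb, where hair keratin genes are switched on. Follicles of young mice pass from growth through regression and rest before they grow again, and whole skin therefore changes its makeup with age.

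The promoters of 6 members are printed because the expression results turn on these genes. Lef1, Wnt11 and Fzd5 stood lower in hairloss skin at day 28, Dkk2 and Wnt16 stood higher there, and Wif1 followed age alike in both genotypes. The sequences are RefSeq's on GRCm38.p6, each running from 250 bases before to 50 bases after a RefSeq start on the gene's own strand. RefSeq lists 4 starts for Lef1, 2 for Wnt11 and 1 for each of the other 4 genes, and the one nearest to the gene's start in GENCODE M21 was taken. For Lef1 that window ends before the GENCODE start at 131110471, which it therefore leaves out. They lie at chr3:131110073-131110372 (plus strand), chr7:98834862-98835161 (plus strand), chr1:64737701-64738000 (minus strand), chr3:132085042-132085341 (plus strand), chr6:22287977-22288276 (plus strand) and chr10:121033754-121034053 (plus strand). Capitals mark CTTTGA or CTTTGT, the core letters that Lef1 and Tcf7 proteins bind, read on either strand.
Lef1: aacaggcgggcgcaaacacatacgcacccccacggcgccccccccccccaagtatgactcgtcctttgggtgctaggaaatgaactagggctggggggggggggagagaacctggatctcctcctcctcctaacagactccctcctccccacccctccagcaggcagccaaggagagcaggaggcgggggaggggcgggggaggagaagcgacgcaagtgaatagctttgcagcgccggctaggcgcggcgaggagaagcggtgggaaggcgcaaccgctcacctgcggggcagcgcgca
Wnt11: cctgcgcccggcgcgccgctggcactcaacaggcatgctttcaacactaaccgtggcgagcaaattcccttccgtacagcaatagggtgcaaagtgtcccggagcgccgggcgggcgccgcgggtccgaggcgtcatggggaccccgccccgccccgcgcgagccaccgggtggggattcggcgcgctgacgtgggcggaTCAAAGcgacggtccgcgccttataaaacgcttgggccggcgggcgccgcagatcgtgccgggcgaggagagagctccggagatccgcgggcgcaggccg
Fzd5: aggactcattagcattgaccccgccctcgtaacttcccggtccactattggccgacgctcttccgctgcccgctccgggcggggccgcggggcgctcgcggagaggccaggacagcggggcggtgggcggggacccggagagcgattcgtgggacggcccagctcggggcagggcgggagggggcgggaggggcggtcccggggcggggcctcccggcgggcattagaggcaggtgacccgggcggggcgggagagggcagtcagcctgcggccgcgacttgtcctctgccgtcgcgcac
Dkk2: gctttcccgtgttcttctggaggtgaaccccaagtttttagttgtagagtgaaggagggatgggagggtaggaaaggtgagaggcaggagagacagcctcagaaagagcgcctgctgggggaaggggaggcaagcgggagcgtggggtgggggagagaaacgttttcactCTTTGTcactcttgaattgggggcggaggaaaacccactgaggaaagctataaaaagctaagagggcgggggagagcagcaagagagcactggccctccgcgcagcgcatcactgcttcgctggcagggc
Wnt16: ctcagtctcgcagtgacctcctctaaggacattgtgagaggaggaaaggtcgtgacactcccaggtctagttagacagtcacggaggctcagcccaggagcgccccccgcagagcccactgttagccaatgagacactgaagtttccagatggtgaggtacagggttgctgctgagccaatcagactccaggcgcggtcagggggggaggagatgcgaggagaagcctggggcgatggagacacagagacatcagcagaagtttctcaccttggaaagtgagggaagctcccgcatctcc
Wif1: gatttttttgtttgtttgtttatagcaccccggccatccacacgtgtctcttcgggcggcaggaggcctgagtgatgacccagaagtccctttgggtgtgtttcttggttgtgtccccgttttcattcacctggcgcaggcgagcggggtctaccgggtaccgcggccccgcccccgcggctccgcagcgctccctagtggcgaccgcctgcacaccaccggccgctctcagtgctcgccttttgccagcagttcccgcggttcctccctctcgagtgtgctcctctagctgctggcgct

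Among these 6 windows, the Wnt11 and Dkk2 promoters held 1 core each, and the letters were not in the Lef1, Fzd5, Wnt16 and Wif1 windows. Promoters of this length were at hand for 32 of the 47 members. CTTTGA was in 3 of the 32 (9.38%), against 16% of all 32851 mouse promoters, and CTTTGT was in 6 of the 32 (18.8%), against 18.7% of all, each counted on both strands. The members' promoters were rich in G and C, with a median of 70.3% against 52.7% over all promoters. GGGCGG, the core bound by Sp1-like factors, was in 24 of the 32 (75%) against 35.7% of all promoters on both strands. TATAAA, read on the gene's strand, was in 4 of the 32 (12.5%) against 8.32% of all. A match describes the letters and is not a bound site.

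Levels are FPKM, fragments per kilobase of transcript and scaled to library size, which allow genes to be compared with each other. Depth was taken as the commonest library size at which a gene's value would equal 1 fragment, in steps of 0.02 on the log10 scale. It came to 31600000 to 43700000 fragments per library, so that 3 fragments on a transcript of 1 kb equal 0.0687 to 0.0949 FPKM. The fewest estimated fragments behind a member value of at least 1 FPKM were 62.5, for Sfrp5 in wildtype skin at day 16. Skin markers (keratins Krt5, Krt14, Krt1 and Krt10 and the fibroblast genes Col1a2, Dcn and Pdgfra) were found in every library. Ddx3y, a Y-linked gene, stood at 0, 20.4, 19.4 and 0 FPKM in hairloss mice at days 0, 16, 19 and 28, against 16.3, 20.1, 15.8 and 16.5 FPKM in wildtype mice. Xist, made from the inactive X chromosome, was at 76.1, 0.00961, 0.115 and 50.2 FPKM in hairloss mice, against 51.3, 0.0158, 12.4 and 0.166 FPKM in wildtype mice. The wildtype libraries of days 0 and 19 thus held both RNAs, and only at day 16 were the genotypes alike in both. Genotype and the sex markers cannot be told apart at day 28 (both RNAs), day 0 (Ddx3y) and day 19 (Xist), nor can age and the sex markers between days 0 and 16 or days 19 and 28 in hairloss skin. In wildtype skin Xist likewise differed between each day and the next. In whole skin, fewer cells of a type and less RNA per cell cannot be told apart either.

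Of the 47 members, 39 reached 1 FPKM in at least 1 library and 33 did so in all 8. The other 8 (the ligands Wnt1, Wnt7a, Wnt8a, Wnt8b and Wnt9b, the receptors Fzd6 and Fzd9 and the inhibitor Dkk4) stayed at or below 0.810 FPKM. Ctnnb1 was by far the highest member, at 251 to 337 FPKM in hairloss mice and 191 to 361 FPKM in wildtype mice. The summed level of the 10 Frizzled receptors was 83.4, 110.2, 88.3 and 82.3 FPKM in hairloss mice at days 0, 16, 19 and 28, against 83.8, 133.0, 84.8 and 106.5 FPKM in wildtype mice. The 19 ligands summed to 93.4, 67.8, 61.0 and 66.3 FPKM in hairloss mice, against 88.7, 95.2, 62.3 and 83.9 FPKM in wildtype mice. Ligand sums lay close together at days 0 and 19, and were lower in hairloss skin at days 16 and 28.

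No single ligand held most of the Wnt RNA. The leading ligand in hairloss skin was Wnt10b at day 0, Wnt11 at day 16, Wnt10a at day 19 and Wnt5a at day 28. In wildtype skin it was Wnt10b, Wnt11, Wnt7b and Wnt5a on the same days, so the genotypes had a different leading ligand only at day 19. Its share ran from 15.7% to 19.3% of the ligand sum in hairloss skin, and from 14.3% to 25.5% in wildtype skin. Fzd10 led the receptors at day 0 and Fzd1 at each later day in both genotypes. Of the 39, on the log2(FPKM + 1) scale, which compresses low levels, those that varied least over the 8 libraries were Fzd8 (1.70 to 2.65 FPKM), Fzd4 (9.63 to 13.8 FPKM) and Lrp6 (27.0 to 39.3 FPKM), and those that varied most were Wif1 (2.50 to 36.1 FPKM) and Lef1 (2.69 to 30.1 FPKM).

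**Figure D1:**
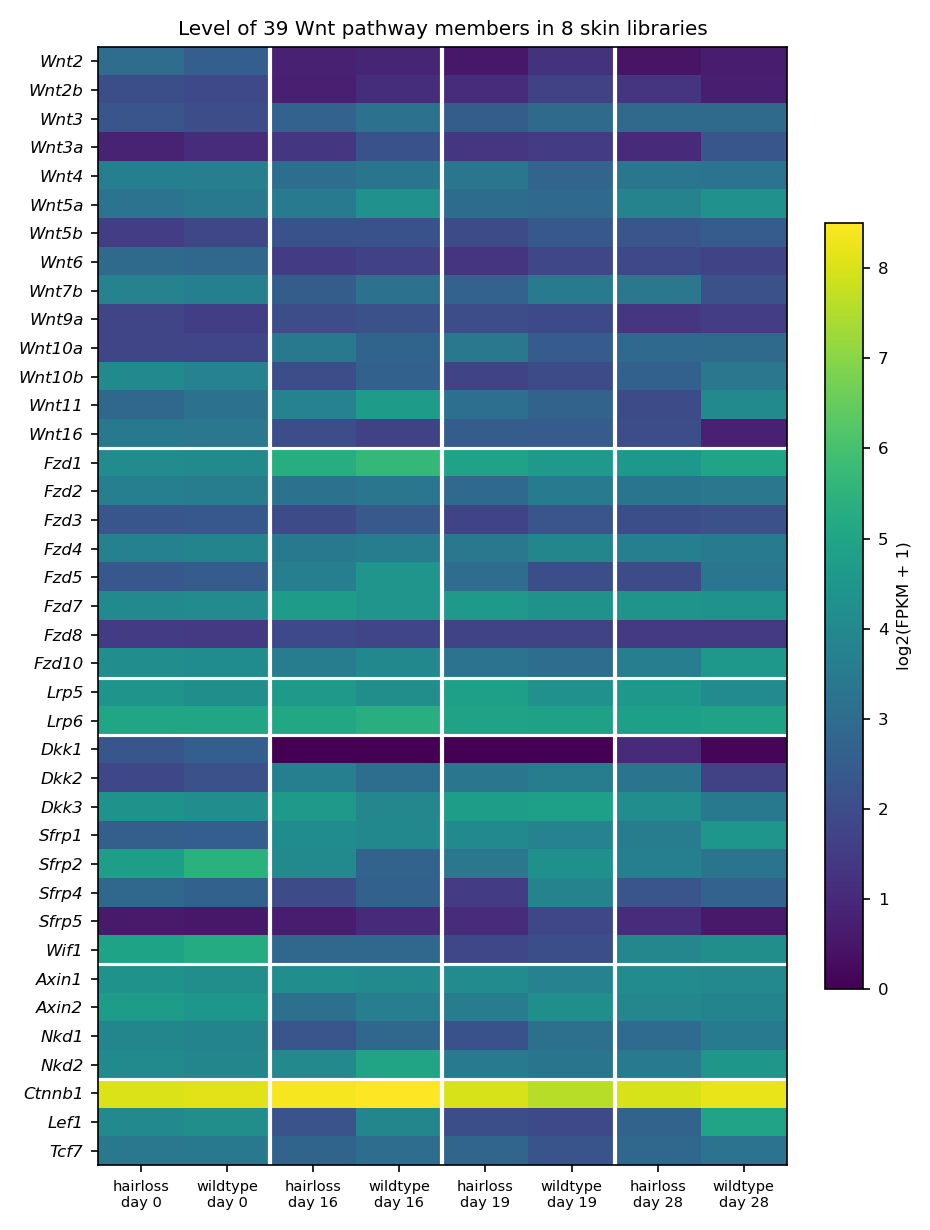
Levels of the 39 members that reached 1 FPKM, as log2(FPKM + 1) (colour), with members in rows, white lines between roles, and the 8 libraries in columns by day, hairloss left of wildtype. Wif1 is high at day 0 and lowest at day 19 in both genotypes, and Lef1 at day 28 is at 5.5 FPKM in hairloss skin and 30.1 FPKM in wildtype skin.

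With 1 library per genotype and day, a difference at a single day has no replicate check and carries no p-value. Differences were taken on log2(FPKM + 1), hairloss minus wildtype, and a member was counted when it differed at least 2-fold on that scale with at least 1 FPKM in either library. At day 0, 0 of 38 members were past this size, where 1.49% of all genes compared were higher and 1.58% lower. At day 16, 1 of 37 members was higher (Sfrp2) and 1 lower (Lef1), where 5.34% of all genes were higher and 7.39% lower. At day 19, 0 of 38 members were higher and 2 lower (Nkd1 and Sfrp4), where 6.53% of all genes were higher and 5.76% lower. At day 28, 3 of 38 members were higher (Dkk2, Wnt16 and Wnt7b) and 4 lower (Fzd5, Lef1, Wnt11 and Wnt3a), where 5.6% of all genes were higher and 6.42% lower. As deposited, 1088 genes were higher and 960 lower at day 19, and 897 higher and 1029 lower at day 28. Rescaling the libraries without keratin genes turned both splits, to 988 higher and 1146 lower at day 19 and to 1087 higher and 898 lower at day 28, where the median of all genes became 0.11 on the log2 scale. With that rescaling 3 members were lower at day 19, Sfrp2 being added, and the members past 2-fold at the other days were as many in each direction.

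In either direction these are 0%, 5.41%, 5.26% and 18.4% of the members compared at days 0, 16, 19 and 28, against 3.07%, 12.7%, 12.3% and 12% of all genes. The members' share was below that of all genes at days 0, 16 and 19 and above it at day 28. Their median difference was 0.01, -0.25, -0.03 and -0.07 on the log2 scale at the 4 days, against -0.01, -0.08, -0.00 and 0.00 for all genes. At day 0 the members farthest apart were Sfrp2, 0.71 lower in hairloss skin on the log2 scale, and Wnt2, 0.49 higher.

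**Figure D2:**
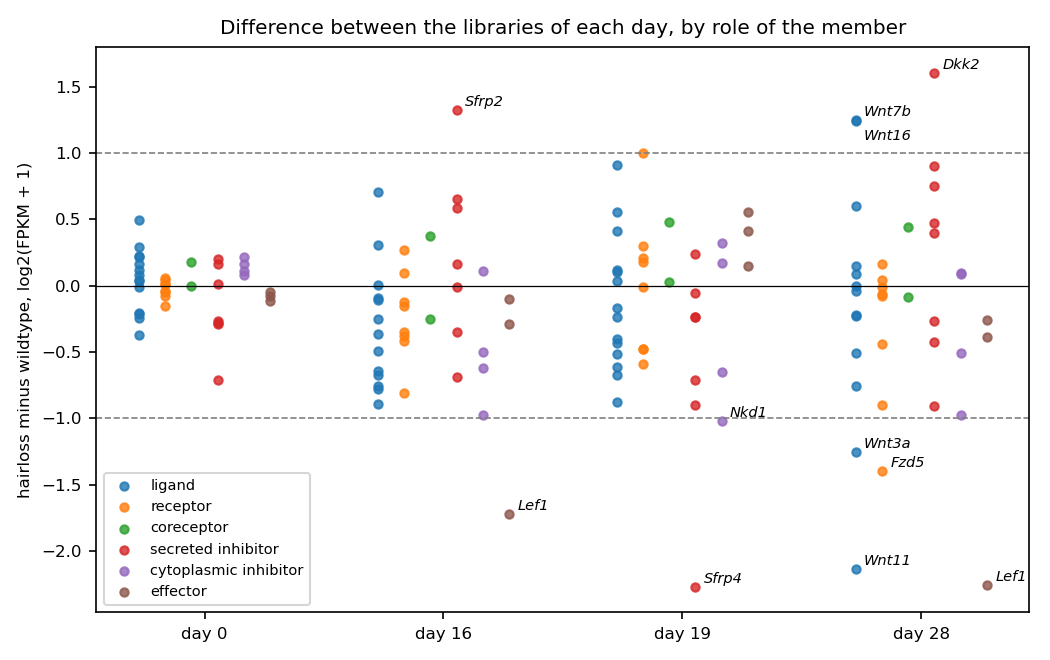
Difference of each member between hairloss and wildtype skin on the log2(FPKM + 1) scale (vertical axis) at days 0, 16, 19 and 28 (horizontal axis), 1 point per member compared, coloured by role, with dashed lines at 2-fold higher and lower. All points lie within the lines at day 0, and 7 members lie outside them at day 28, 4 of them below.

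Lef1, the effector that pairs with beta-catenin in the hair bulb, had the largest difference of the members on this scale at day 16 and at day 28, although with a pseudocount of 0.1 Dkk1 passed it at day 28 (2.59). Its gene lies on chromosome 3 at 131110471 to 131224356 on mm10. Lef1 stood at 15.8, 3.5, 3.09 and 5.5 FPKM in hairloss mice at days 0, 16, 19 and 28, against 17.3, 13.9, 2.69 and 30.1 FPKM in wildtype mice. The difference was -1.72 at day 16 and -2.26 at day 28 on the log2 scale, and 0.15 at day 19, when wildtype skin was at its own lowest level. The other effectors differed less than 2-fold at each day. Tcf7, a related factor, was at 9.50, 5.71, 5.87 and 6.28 FPKM in hairloss mice, against 9.83, 7.20, 3.67 and 8.51 FPKM in wildtype mice. Ctnnb1 was at 266, 337, 254 and 251 FPKM in hairloss mice, against 280, 361, 191 and 299.7 FPKM in wildtype mice.

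The hair shaft keratins were lower in hairloss skin on the same days as Lef1. The summed level of 12 such genes was 25.8, 965, 376 and 20.0 FPKM in hairloss mice at days 0, 16, 19 and 28, against 34.4, 4381, 33.9 and 3984 FPKM in wildtype mice. At day 16, 10 of the 12 were at least 2-fold lower in hairloss skin, at day 19 10 of 12 were higher, and at day 28 12 of 12 were lower, where Krt34 was listed at 0 in hairloss skin. Of 10 inner root sheath genes, 7 were lower at day 16, 9 higher at day 19 and 10 lower at day 28. Their sums were 397, 6301, 1966 and 285 FPKM in hairloss mice, against 333, 9473, 140 and 9209 FPKM in wildtype mice, with Tchh listed at 0 in the day 16 wildtype library. At day 19 the hair shaft keratins and Lef1 did not go together, since Lef1 differed by 0.15 on the log2 scale. Immune and wound-type markers also moved at day 16. Macrophage markers were higher in hairloss skin in 9 of 9 genes (sums of 669 FPKM in hairloss mice and 202 FPKM in wildtype mice, none at 0), and neutrophil markers in 6 of 7 (3771 and 154 FPKM), with Ly6g at 0 in the wildtype library. Wound-type epidermis markers were higher in 9 of 10 (18166 FPKM in hairloss mice and 1773 FPKM in wildtype mice), with Defb3 and Sprr2d at 0 in the wildtype library. S100a8 and S100a9 are in both the neutrophil and the wound-type list, so these lists are not independent of each other. The median neutrophil marker was at 7.85 FPKM in hairloss mice and 0.665 FPKM in wildtype mice at day 16, far below the sums. Skeletal muscle markers were lower at day 16 in 5 of 11 and higher in 0 (818 FPKM in hairloss mice and 1788 FPKM in wildtype mice). At day 28 wound-type markers were higher in 8 of 10 (5677 and 1023 FPKM), and 8 of 9 melanocyte markers were lower (163 FPKM in hairloss mice and 537 FPKM in wildtype mice). The part of these cells and of follicle content in the Lef1 result was not tested.

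Among the ligands, Wnt11, which acts mostly outside the beta-catenin branch, had the largest difference on this scale. Wnt11, on chromosome 7 at 98835112 to 98855195, stood at 6.17, 12.6, 7.67 and 2.85 FPKM in hairloss mice at days 0, 16, 19 and 28. In wildtype skin it stood at 8.30, 24.3, 5.53 and 15.9 FPKM. The difference was -2.14 at day 28 and -0.89 at day 16, and the day 28 library was the lowest of the 4 in hairloss skin. Wnt3a, a classical activator of beta-catenin, was low throughout, at 0.806, 1.56, 1.51 and 1.03 FPKM in hairloss mice, against 1.09, 3.40, 1.82 and 3.85 FPKM in wildtype mice. Its difference was -1.26 at day 28, and hairloss skin was the lower at all 4 days.

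Wnt16 and Wnt7b, both made in epidermis, stood the other way at day 28. Wnt16, on chromosome 6 at 22288227 to 22298522, was at 9.82, 2.99, 4.65 and 3.02 FPKM in hairloss mice, against 9.23, 2.23, 4.51 and 0.706 FPKM in wildtype mice. Its difference was 1.24 at day 28 and at most 0.30 at the earlier days. Wnt7b was at 12.7, 4.65, 5.33 and 9.25 FPKM in hairloss mice, against 11.7, 8.02, 10.7 and 3.32 FPKM in wildtype mice. The difference of 1.25 at day 28 went with differences of -0.67 and -0.88 at days 16 and 19. Markers of epidermal keratinocytes were also higher in hairloss skin at day 28, in 7 of 12 genes, with sums of 11617 FPKM in hairloss mice and 2652 FPKM in wildtype mice and none at 0. At day 16, 4 of the 12 were higher and 0 lower, with sums of 12340 FPKM in hairloss mice and 3904 FPKM in wildtype mice. At day 19, 4 were higher and 2 lower, with sums of 13416 FPKM in hairloss mice and 4427 FPKM in wildtype mice. The part of this list in the ligand results was not tested.

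The other ligands of the beta-catenin and noncanonical branches differed less than 2-fold at each day on the log2(FPKM + 1) scale, where low levels differ less than their ratio. Wnt10b, expressed in follicle epithelium, was at 15.7, 2.98, 2.36 and 5.18 FPKM in hairloss mice, against 12.7, 5.23, 2.96 and 9.46 FPKM in wildtype mice. Wnt10a, mutated in human disorders of hair and teeth, was at 2.4, 9.83, 9.55 and 6.42 FPKM in hairloss mice, against 2.43, 5.65, 4.61 and 6.64 FPKM in wildtype mice. Its difference of 0.91 at day 19 came close to the size used. Wnt5a, the leading noncanonical ligand, was at 8.35, 10.6, 7.06 and 12.8 FPKM in hairloss mice, against 9.76, 18.6, 6.5 and 18.6 FPKM in wildtype mice. Wnt5a thus had its lowest library at day 19 in both genotypes. Wnt4 held between 7.34 and 11.6 FPKM in hairloss mice and between 5.89 and 11.3 FPKM in wildtype mice.

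Fzd5 was the receptor with the widest swing. Fzd5, on chromosome 1 at 64730558 to 64737751 on the minus strand, stood at 3.99, 11.5, 7.18 and 2.85 FPKM in hairloss mice at days 0, 16, 19 and 28, against 4.54, 20.8, 3.09 and 9.16 FPKM in wildtype mice. On the log2(FPKM + 1) scale its differences were -0.81 at day 16, 0.999 at day 19, just under 2-fold on that scale, and -1.40 at day 28. Hairloss skin was thus lower at days 16 and 28 and higher at day 19, as the hair shaft keratin sums were. The other 9 receptors differed less than 2-fold on the log2(FPKM + 1) scale at each day. Fzd1, the highest of them, was at 15.98, 38.1, 28.7 and 21.9 FPKM in hairloss mice, against 15.5, 49.8, 23.2 and 30.2 FPKM in wildtype mice. Fzd10 was at 16.9, 11.1, 8.5 and 11.4 FPKM in hairloss mice, against 16.7, 14.5, 7.24 and 22.2 FPKM in wildtype mice, a difference of -0.90 at day 28. The coreceptor Lrp6 was at 30.7, 32.8, 28.8 and 27.0 FPKM in hairloss mice, against 30.8, 39.3, 28.3 and 28.8 FPKM in wildtype mice.

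Secreted inhibitors include the members with the largest differences at day 19 and between days 0 and 16. Sfrp4, a Frizzled-related protein, on chromosome 13 at 19623104 to 19632994, stood at 6.19, 2.83, 1.86 and 3.76 FPKM in hairloss mice at days 0, 16, 19 and 28, against 5.25, 5.19, 12.8 and 5.37 FPKM in wildtype mice. The difference was -2.27 at day 19 and at most 0.69 in size at the other days, with the wildtype day 19 library the highest of the 8. Sfrp2, a dermal product, was at 25.5, 15.5, 9.25 and 11.6 FPKM in hairloss mice, against 42.3, 5.58, 18.1 and 8.61 FPKM in wildtype mice. It stood higher in hairloss skin at day 16, by 1.33, and lower at days 0 and 19, by -0.71 and -0.90. Of 12 dermal fibroblast markers, 6 were lower and 2 higher in hairloss skin at day 19. The 2 higher ones were Col1a1 and Col3a1, both listed at 0 in the wildtype day 19 library, while the related Col1a2 was at 627 FPKM in hairloss mice and 3535 FPKM in wildtype mice. Without those 2 genes, 6 of 10 were lower and 0 higher, with sums of 2291 FPKM in hairloss mice and 8125 FPKM in wildtype mice. Adipocyte markers were lower at day 19 in 5 of 10 genes, with sums of 1102 FPKM in hairloss mice and 1830 FPKM in wildtype mice. Skeletal muscle markers were lower in 7 of 11 genes (3317 FPKM in hairloss mice and 7122 FPKM in wildtype mice, none at 0). Wound-type epidermis markers were higher in hairloss skin at day 19 in 10 of 10 genes (22759 and 647 FPKM), with Defb3 and Sprr2d at 0 in the wildtype library. Neutrophil markers were higher in 5 of 7 genes (6547 FPKM in hairloss mice and 18.0 FPKM in wildtype mice), although Ly6g was at 0 in the hairloss library. Their median was 5.81 FPKM in hairloss mice and 2.82 FPKM in wildtype mice, and S100a8 and S100a9 are in the wound-type list too. Cell cycle genes were higher in 8 of 11 (162 and 81.1 FPKM, none at 0). The part of all these lists in the day 19 results, and of the day 16 lists above in the Sfrp2 result, was not tested.

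Dkk2, which binds Lrp coreceptors, stood higher in hairloss skin at day 28. On chromosome 3 at 132085292 to 132180304, it stood at 2.60, 11.7, 9.13 and 8.65 FPKM in hairloss mice at days 0, 16, 19 and 28, against 3.33, 7.46, 10.96 and 2.17 FPKM in wildtype mice. The difference of 1.61 at day 28 contrasts with -0.24 at day 19. Dkk3, a divergent family member, was at 19.3, 23.1, 26.0 and 17.2 FPKM in hairloss mice, against 17.2, 14.3, 27.0 and 9.79 FPKM in wildtype mice, a difference of 0.75 at day 28. Both were higher in hairloss skin at days 16 and 28. The 4 Dickkopf genes summed to 26.9 FPKM in hairloss mice and 12.3 FPKM in wildtype mice at day 28. Dkk3 held 63.9% of that sum in hairloss mice and 79.6% in wildtype mice. Sfrp1 went the other way at day 28, at 10.9 FPKM in hairloss mice and 21.3 FPKM in wildtype mice, a difference of -0.91. Dermal markers were mixed at day 28, with 3 of 12 fibroblast genes higher and 2 lower, and 1 of 10 dermal papilla genes higher. Col3a1 was listed at 0 in the hairloss library there and Col1a1 in the wildtype library, and without them 2 of 10 fibroblast genes were higher and 1 lower. The 10 summed to 4549 FPKM in hairloss mice and 6918 FPKM in wildtype mice. Skeletal muscle genes were higher in 11 of 11, with sums of 8060 FPKM in hairloss mice and 3513 FPKM in wildtype mice. Adipocyte genes were higher in 4 of 10 and lower in 0, with sums of 1746 FPKM in hairloss mice and 993 FPKM in wildtype mice. The part of these lists in the day 28 results was not tested.

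Nkd1 and Nkd2, which bind Dishevelled proteins, and Axin2 are feedback inhibitors, and Nkd1 and Axin2 are widely used as readouts of beta-catenin signalling. Nkd1 was at 14.0, 3.75, 3.39 and 6.77 FPKM in hairloss mice at days 0, 16, 19 and 28, against 13.2, 6.29, 7.89 and 10.04 FPKM in wildtype mice. Its difference was -1.02 at day 19, just past 2-fold on the log2(FPKM + 1) scale, and -0.62 and -0.51 at days 16 and 28. Axin2 was at 24.8, 7.70, 11.02 and 14.3 FPKM in hairloss mice, against 21.2, 11.3, 17.9 and 13.4 FPKM in wildtype mice. Axin2 was thus lower in hairloss skin at days 16 and 19, by less than 2-fold, and at about the same level at day 28, when Lef1 differed most. Nkd2 was at 15.8, 15.0, 10.03 and 10.5 FPKM in hairloss mice, against 14.0, 30.4, 8.78 and 21.5 FPKM in wildtype mice. Its differences of -0.97 at days 16 and 28 lay just short of 2-fold on the log2(FPKM + 1) scale. Axin1, the constant scaffold, stayed between 15.99 and 19.1 FPKM in hairloss mice and between 12.6 and 17.6 FPKM in wildtype mice.

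**Figure D3:**
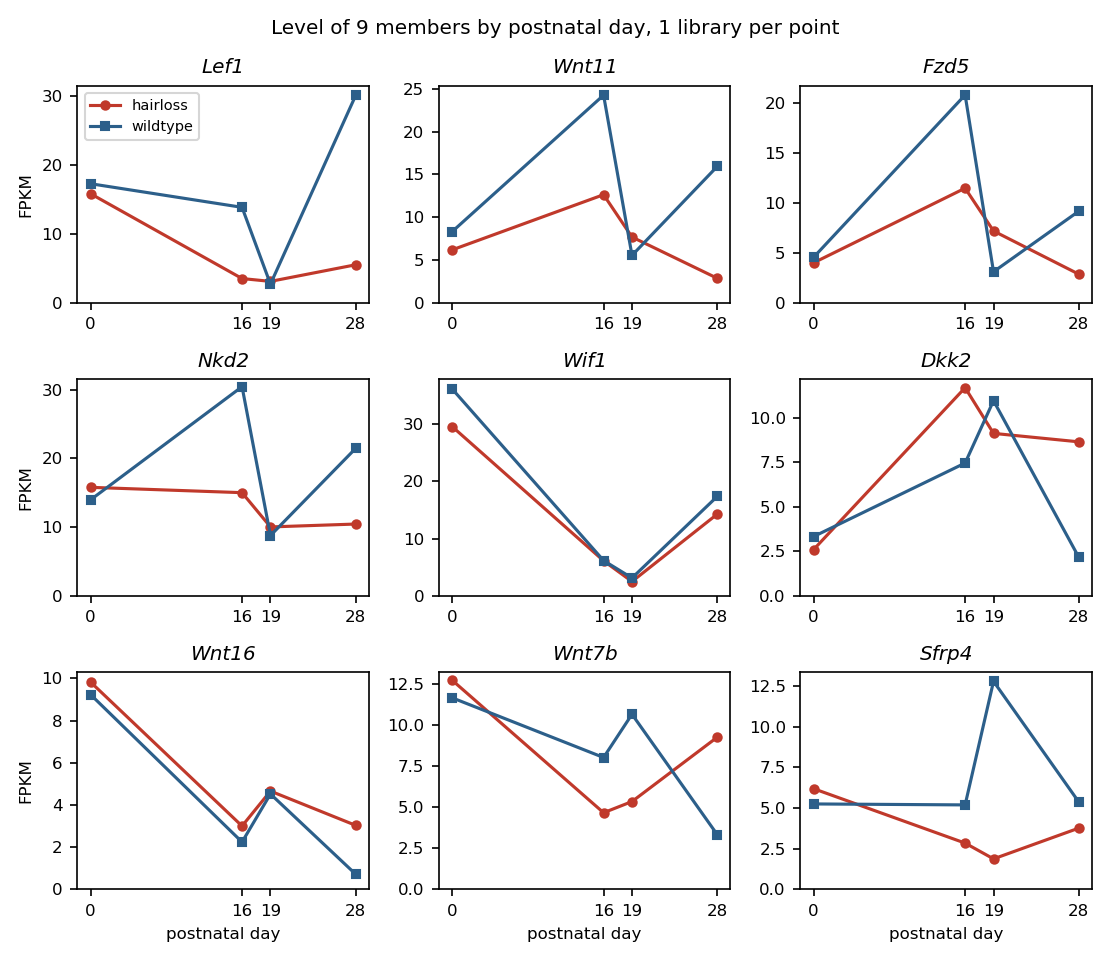
Level in FPKM (vertical axis, linear from 0) by postnatal day (horizontal axis) of 9 members, 1 panel each, 1 point per library, hairloss and wildtype as separate lines. Wnt11 and Fzd5 are lower at day 28 than at day 19 in hairloss skin and higher in wildtype skin, while the Wif1 lines run close together.

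A fit over all 8 libraries had genotype and day as terms. It tested the mean difference of hairloss from wildtype skin over the 4 days. Whether that difference was alike at each day was not tested. With limma and Benjamini-Hochberg adjustment over 18724 genes, 0 of 39 members passed an adjusted p of 0.05, where 0.0374% of all genes (7) passed. Without adjustment, 3 members and 2511 genes were under 0.05. Of the 39 members, 12 were estimated higher and 27 lower in hairloss skin (69.2% lower), none of them past the adjusted threshold, where 8309 of all genes were estimated higher and 10415 lower (55.6% lower). The median estimate was -0.12 for the members and -0.04 for all genes. The coreceptor Lrp5 was nearest, at 20.2, 22.8, 26.6 and 22.0 FPKM in hairloss mice, against 17.7, 17.4, 18.8 and 15.97 FPKM in wildtype mice. Hairloss skin was higher in 4 of 4 pairs, by 0.37 ± 0.10 (log2, SE, limma adjusted p = 0.327). Nkd1 was lower by -0.52 ± 0.19 (adjusted p = 0.361) and Wnt3a by -0.60 ± 0.23 (adjusted p = 0.361). Lef1 was lower by -0.99 ± 0.46 (adjusted p = 0.414), with differences of -0.12 and 0.15 at days 0 and 19 beside those at days 16 and 28. This fit has 3 residual degrees of freedom and takes the change of a difference with age as error. Its p-values therefore do not measure a spread between like libraries or animals.

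Other genes of the pathway, 78 in 4 lists, were read in the same way. At day 0, 0 of them were past 2-fold. At day 16, where 5.34% of all genes were higher and 7.39% lower, the ones past it were 4 of 13 reported targets, with the adhesion receptor Cd44 higher in hairloss skin (110.0 against 36.9 FPKM in wildtype mice) and 3 hair regulators lower. Those were Dlx3 (27.2 FPKM in hairloss against 97.7 FPKM in wildtype mice), Msx2 (8.26 against 31.4 FPKM) and Foxn1 (5.16 against 20.4 FPKM). At day 28 the same 3 factors were lower again, of 14 targets compared and beside 6.42% of all genes, with Dlx3 at 18.1 FPKM in hairloss and 97.8 FPKM in wildtype mice, Msx2 at 3.64 and 35.9 FPKM and Foxn1 at 1.19 and 17.4 FPKM. Twist1, a factor of mesenchyme, was the 1 target higher there, at 16.1 FPKM in hairloss and 5.96 FPKM in wildtype mice. At day 19, 3 of 12 targets were higher in hairloss skin and 1 lower, where 6.53% of all genes were higher and 5.76% lower. The higher ones were Cd44 (129.7 FPKM in hairloss against 37.9 FPKM in wildtype mice), Dlx3 (16.6 against 7.22 FPKM) and Foxn1 (3.83 against 1.36 FPKM). Twist1 was the lower one, at 7.29 FPKM in hairloss and 17.1 FPKM in wildtype mice.

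Among genes for ligand secretion and pathway modifiers, 1 of 11 differed at day 19 and 1 of 13 at day 28, both higher in hairloss skin. Of all genes, 6.53% and 5.6% were higher on those days. Porcn, the enzyme that adds the lipid to Wnt ligands, was at 13.0 FPKM in hairloss mice and 3.29 FPKM in wildtype mice at day 19. Sost, which binds Lrp5 and Lrp6, was at 1.16 FPKM in hairloss mice and 0.0651 FPKM in wildtype mice at day 28. Of 17 genes for coreceptors, planar polarity and receptor turnover, 3 were higher (Vangl1, Ptk7 and Celsr2) and 1 lower (Lgr6) at day 19. Over all genes 6.53% were higher and 5.76% lower that day. At day 28, 2 of the 17 were higher (Lgr6 and Lrp4) and 1 lower (Prickle1), where 5.6% of all genes were higher and 6.42% lower. Lgr6, an R-spondin receptor of epidermal stem cells, was at 2.98 and 11 FPKM in hairloss mice at days 19 and 28, against 8.55 and 3.58 FPKM in wildtype mice, so its direction differed between the days. Of 28 genes of the cytoplasm and nucleus compared at day 28, 1 differed, where 12% of all genes did. It was Daam2, at 4.57 FPKM in hairloss and 1.33 FPKM in wildtype mice. At day 16, 0 of 28 differed and at day 19 0 of 27, against 12.7% and 12.3% of all genes. In the limma fit over the 4 days, 0 of the 72 such genes tested passed for genotype.

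In both genotypes many Wnt genes stood at another level at day 16 than at day 0. Between day 0 and day 16, 16 of 38 members in hairloss skin (42.1%) passed the 2-fold size, 5 higher and 11 lower at day 16, against 22% of all genes (10.5% higher and 11.4% lower). In wildtype skin 14 of 39 members (35.9%) did, 7 higher and 7 lower, against 20.6% of all genes (11.1% higher and 9.53% lower). The limma fit over both genotypes called 7 of 39 members for this step, where 8% of all genes (1497) were called, 3.58% higher and 4.42% lower. Over all genes 670 were higher and 827 lower, a split that became 590 and 1723 when libraries were rescaled without keratin genes. Fzd1, a receptor, rose by 1.41 ± 0.22 (log2, SE, limma adjusted p = 0.0370) and Sfrp1, a ligand-binding inhibitor, by 1.48 ± 0.31 (adjusted p = 0.0499). Both rose in 2 of 2 genotypes, Sfrp1 being at 16.4 FPKM at day 16 and 4.90 FPKM at day 0 in hairloss skin, and at 14.5 and 4.86 FPKM in wildtype skin.

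The 5 members that limma called lower at day 16 than at day 0 fell in both genotypes. The fit takes what the genotypes do not share as error, so its calls favour genes that moved alike in both. Wif1, which binds Wnt ligands directly, was at 29.6, 6.12, 2.50 and 14.3 FPKM in hairloss mice at days 0, 16, 19 and 28, against 36.1, 6.16, 3.12 and 17.3 FPKM in wildtype mice. Its change to day 16 was -2.24 ± 0.14 (limma adjusted p = 0.0117). The genotypes differed by at most 0.28 in size on the log2 scale at each day, so the Wif1 courses lay together while its level varied the most of the 39 members on that scale. Dkk1, an inhibitor made in the dermis, was at 3.80, 0.00916, 0 and 1.03 FPKM in hairloss mice, against 4.87, 0, 0 and 0.0880 FPKM in wildtype mice. It fell by 2.4 ± 0.32 on the log2 scale (adjusted p = 0.0310), and its 0 values are given as listed, with 3 fragments equal to 0.0283 to 0.0391 FPKM for this gene.

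Among the ligands, limma called Wnt2, Wnt6 and Wnt10b lower over the same step. Wnt2 was at 7.17, 0.725, 0.472 and 0.378 FPKM in hairloss mice, against 4.80, 0.829, 1.35 and 0.570 FPKM in wildtype mice, a change of -1.95 ± 0.30 (limma adjusted p = 0.0366). Wnt6 was at 6.59, 1.87, 1.45 and 2.67 FPKM in hairloss mice, against 6.36, 2.09, 2.50 and 2.31 FPKM in wildtype mice, a change of -1.33 ± 0.23 (adjusted p = 0.0391). For Wnt10b the change was -1.60 ± 0.29 (adjusted p = 0.0415). Nkd1 (-1.31, adjusted p = 0.0506), Axin2 (-1.21, adjusted p = 0.0513), Wnt16 (-1.55, adjusted p = 0.0525) and Wnt10a (1.31, adjusted p = 0.0556) lay just outside the threshold. Adjusted p ran from 0.0106 to 0.0306 for Wif1 and from 0.0272 to 0.0484 for Dkk1 over the alternatives tried, while the other 5 called members lost the call when low genes were kept in the test. The Sfrp1 call was also lost with plain moderation (adjusted p = 0.0562), a pseudocount of 5 (0.0589) and rescaling by median of ratios (0.0502), in a range of 0.0442 to 0.0776. Between days 0 and 16 hair shaft keratin sums rose from 25.8 to 965 FPKM in hairloss and 34.4 to 4381 FPKM in wildtype skin. Inner root sheath sums rose from 397 to 6301 FPKM in hairloss and 333 to 9473 FPKM in wildtype skin. Skeletal muscle sums fell from 7772 to 818 FPKM in hairloss and 6325 to 1788 FPKM in wildtype skin. Endothelium, melanocyte and cell cycle sums were lower at day 16 as well. Dermal papilla sums fell from 159 to 52.1 FPKM in hairloss and 158 to 34.1 FPKM in wildtype skin, with no gene at 0. Xist was at a lower level at day 16 in both genotypes too, and the part of these markers in the changes was not tested.

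**Figure D4:**
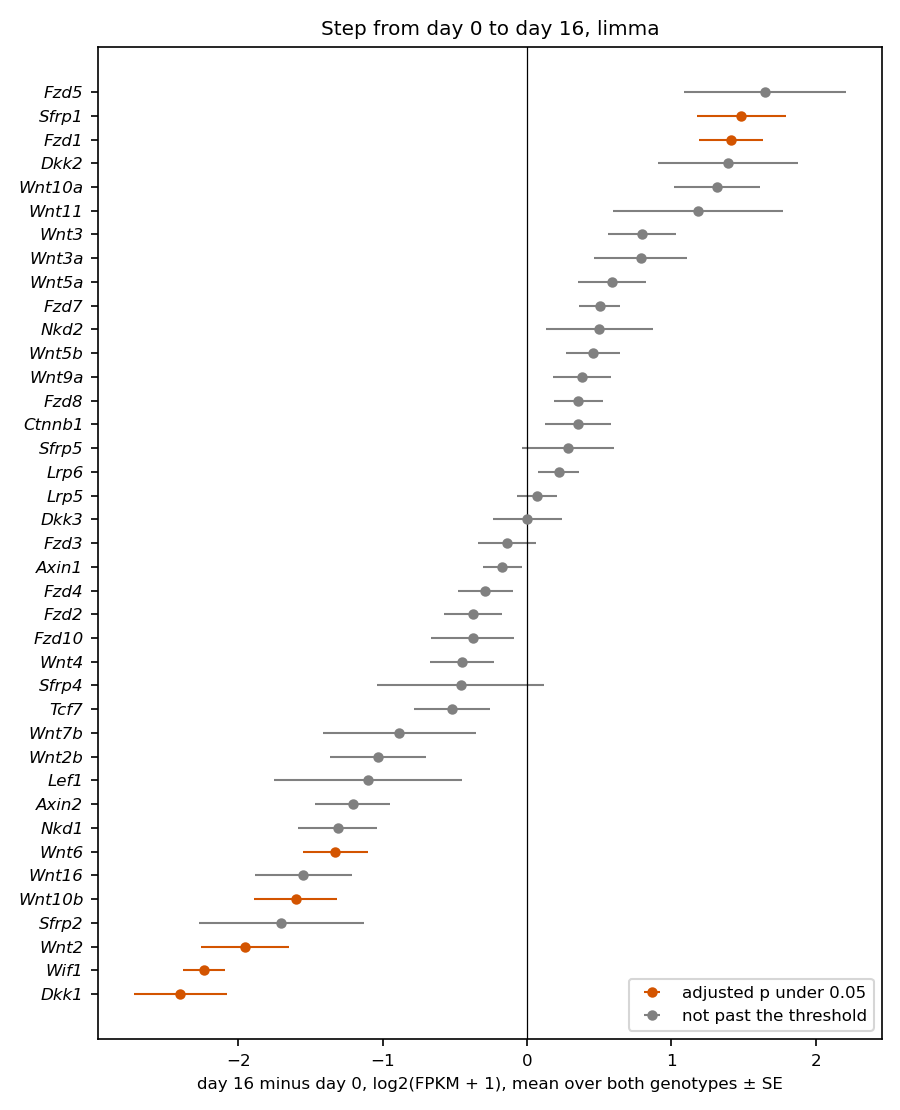
Change of each of the 39 tested members, day 16 minus day 0 on the log2(FPKM + 1) scale (horizontal axis), as limma's estimate over both genotypes with its SE as a bar, members in rows by size. The 7 called members are in orange, Fzd1 and Sfrp1 on the right and Wif1, Dkk1, Wnt2, Wnt6 and Wnt10b on the left.

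Of the other pathway genes, 1 of 72 rose and 11 fell between day 0 and day 16 by limma at the same threshold, where 3.58% of all genes rose and 4.42% fell. Sox9, a factor of hair stem cells, rose by 2.09 ± 0.30 (adjusted p = 0.0340), with 31.7 FPKM at day 16 and 7.42 FPKM at day 0 in hairloss skin, and 34.4 and 6.55 FPKM in wildtype skin. Those that fell were Frzb, Kremen2 and Rspo3 among 13 genes for ligand secretion and pathway modifiers, and Ror1, Ror2 and Znrf3 among 17 receptor genes. Bcl9 also fell among 28 genes of the cytoplasm and nucleus, and Edar, Shh, Tnfrsf19 and Twist2 among 14 targets. Rspo3, which strengthens Wnt signalling at the receptor, was at 0.523 FPKM at day 16 and 5.84 FPKM at day 0 in hairloss skin, and at 0.418 and 7.33 FPKM in wildtype skin. Ror2, a receptor for Wnt5a, was at 2.42 FPKM at day 16 and 10.6 FPKM at day 0 in hairloss skin, and at 3.08 and 10.8 FPKM in wildtype skin.

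From day 16 to day 28 fewer members passed the 2-fold size in hairloss skin than in wildtype skin. Between day 16 and day 19, 1 of 37 members in hairloss skin (2.70%) passed the 2-fold size, against 4.4% of all genes (2.33% higher and 2.07% lower), and it was Wif1, lower at day 19. In wildtype skin 8 of 38 members (21.1%) did, against 14% of all genes (6.41% higher and 7.63% lower), with Sfrp2 and Sfrp4 higher and Fzd1, Fzd5, Lef1, Nkd2, Wnt11 and Wnt5a lower at day 19. Between day 19 and day 28, 4 of 38 members in hairloss skin (10.5%) did, against 8.25% of all genes (3.75% higher and 4.5% lower), with Dkk1 and Wif1 higher and Fzd5 and Wnt11 lower at day 28. In wildtype skin 15 of 38 (39.5%) did, against 16.9% of all genes (8.09% higher and 8.78% lower). There 9 were higher at day 28 (Fzd10, Fzd5, Lef1, Nkd2, Tcf7, Wif1, Wnt10b, Wnt11 and Wnt5a) and 6 lower (Dkk2, Dkk3, Sfrp4, Sfrp5, Wnt16 and Wnt7b). The share of all genes past the size also differed between the genotypes, and the difference between genotypes in these steps has no replicate to test it. Rescaling the libraries without keratin genes moved the median change of all genes by over 0.1 on the log2 scale in both genotypes for the first step, to -0.26 in hairloss skin and -0.27 in wildtype skin, and in wildtype skin to 0.15 and -0.20 for the later steps. The members past 2-fold were then 5 higher and 12 lower in hairloss skin and 4 higher and 9 lower in wildtype skin for the first step, 0 in hairloss skin and 3 higher and 5 lower in wildtype skin for the next, and 2 higher and 2 lower in hairloss skin and 8 higher and 8 lower in wildtype skin for the last.

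The wildtype course was down and up for 17 of 38 members, lower at day 19 than at both day 16 and day 28, among them Lef1, Wnt11, Fzd5, Fzd10, Nkd2, Tcf7, Wnt10b and Wnt5a. For 14 of 38 it was up and down, among them Dkk2, Dkk3, Sfrp4, Sfrp5, Wnt7b and Wnt16. Steps of any size are counted here, and over all 17010 genes the shares were 39.7% down and up and 39.7% up and down, against 44.7% and 36.8% of the members. With at least 1 step past 2-fold there were 10 members down and up (26.3%) and 7 up and down (18.4%), against 9.63% and 10.2% of all genes. In hairloss skin Lef1 ended at 5.5 FPKM at day 28 and Wnt11 and Fzd5 were lower still at day 28 than at day 19, at 2.85 FPKM each. Over both genotypes limma called 0 of 39 members between day 16 and day 19, where 0.016% of all genes (3) were called, with 6 members and 975 genes under 0.05 before adjustment. Between day 19 and day 28 it called 0 of 39 members and 0 of 18724 genes (0%), with 8 members and 1910 genes under 0.05 before adjustment. Wif1 came nearest, higher at day 28 in 2 of 2 genotypes by 2.14 ± 0.14 (adjusted p = 0.137).

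**Figure D5:**
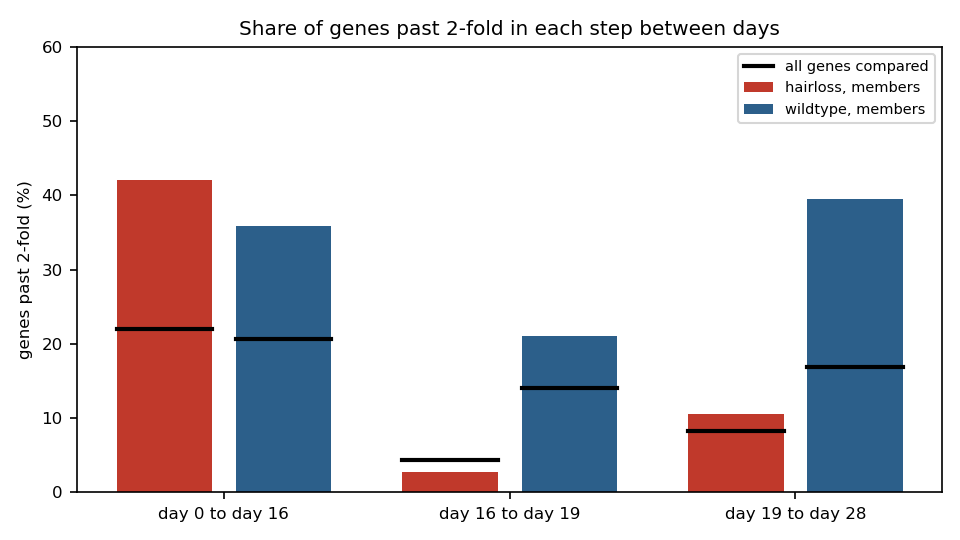
Percent of genes at least 2-fold apart between successive days (vertical axis, from 0) for the members (bars) and all genes compared (black lines), for each age step, hairloss left of wildtype. The members stand at 2.70% and 10.5% for the last 2 steps in hairloss skin, against 21.1% and 39.5% in wildtype skin.

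The strand setting used in counting is not stated in the sources used here, and 9 members share exon sequence with a gene on the opposite strand. For Lef1, Wnt11, Wnt7b, Fzd5 and Sfrp2 the partner's highest level was 2.4, 0.149, 0.590, 0.273 and 0.426 FPKM over the 8 libraries. Reads of a member and its partner cannot be told apart without strand.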

How the data were processed

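Skin RNA of 8 mouse libraries was compared by the genotype and age in the labels. Per the submitters' processing notes, the tools include cutadapt and Cuffdiff and the build is mm10, with no version or order stated. Aligner, annotation release, strand setting and scaling between libraries are not stated in the sources used here. The tables deposited by the authors hold 1 value per gene without a unit, read here as FPKM because Cuffdiff writes that unit and the values fit it. Their depth was estimated from genes with 1 transcript longer than 1000 bases, so floors of 3 fragments are estimates and cover counting error only. Precision is limited by 1 library per group. Whether a library holds 1 animal or several is not stated. With no like libraries, p-values are set against the change of the genotype difference with age. They do not measure a spread between animals or repeated libraries.

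Coordinates are GENCODE M21 on mm10. Analyses used log2(FPKM + 1), a scale on which low genes change less than their ratio, and the pseudocount of 1 was varied to 0.1 and 5. Libraries of 1 day, or of successive days within a genotype, were compared by size alone (at least 2-fold, at least 1 FPKM in either). The limma fit (version 3.58.1, R 4.3.3, moderated with trend and robust options, two-sided) had genotype and day as terms and took 18724 genes that reached 1 FPKM somewhere, with adjustment over all of them. It was first run on simulated data with each gene's spread capped and a genotype effect equal at all days. Those data therefore could not test how the fit handles a difference that changes with age. The members and lists were chosen with earlier results of these data known. The fibroblast list without Col1a1 and Col3a1 was added after the data were seen. Members past 2-fold at a day or age step, or called by limma, are named, and of other lists up to 4 genes with the largest differences at a day, with limma calls. Alternatives were other pseudocounts, no filter on low values, rescaling by median of ratios or without keratins, protein-coding genes alone, plain moderation, no day term and leaving out each day.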

Additional observations from a re-analysis of the deposited data

Results flagged for a closer look

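Members were picked out when they differed at least 2-fold between hairloss and wildtype skin at one day, and at least 1.5-fold the other way at another. The difference between days was not tested, since each day has 1 library per genotype. Wnt7b was lower in hairloss skin by -0.67 at day 16 and -0.88 at day 19, and higher by 1.25 at day 28, on the log2 scale. Fzd5 was higher in hairloss skin by 0.999 at day 19 and lower by -1.40 at day 28. Sfrp2 was lower in hairloss skin by -0.71 at day 0 and -0.90 at day 19, and higher by 1.33 at day 16.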

How the results depend on the processing

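None of the 69 member differences past 2-fold at a day or age step changed sign under another pseudocount or scaling. This outcome was fixed in advance and tests nothing. A pseudocount cannot change a sign, and the scaling factors, at 0.910 to 1.08, lay too close together to turn a 2-fold difference. Over all genes, rescaling without keratins turned the split of higher against lower genes at days 19 and 28. It did so too in wildtype skin between days 0 and 16 (1536 higher and 2399 lower, against 1913 and 1644 as deposited) and between days 16 and 19 (1577 and 1050, against 1068 and 1270), and between days 28 and 19 it widened it (1094 and 1973, against 1338 and 1452). Of the 11 member differences past 2-fold at a day, all 11 kept their side of 2-fold under each alternative except the pseudocount of 5, where 4 did and 7 did not. Dropping the filter leaves these differences as they were, and a pseudocount of 0.1 can only enlarge them. Only the rescalings and the pseudocount of 5 could therefore have removed a member. With that pseudocount 0 members were higher at day 16, 1 (Sfrp4) was lower at day 19, 0 were higher at day 28 and 2 (Lef1 and Wnt11) were lower there. The age steps then held 10, 0 and 1 members in hairloss skin and 5 and 6 in wildtype skin for the first and last step. limma then called 3 genes for genotype and 1 between days 16 and 19. With the pseudocount of 0.1, the counts were 3 lower members (day 16), 2 higher and 4 lower (day 19) and 5 higher (day 28), and limma called 5 genes and 1 member (Wif1, adjusted p = 0.0425) between days 19 and 28. Rescaling without keratins left 0 members past 2-fold between days 16 and 19 in hairloss skin and called 2313 genes between days 0 and 16, and rescaling by median of ratios put 1 member (Fzd5) higher at day 19. Keeping low genes called 2 genes for genotype, 456 genes and 2 members (Dkk1 and Wif1) between days 0 and 16, and 1 gene between days 16 and 19. Protein-coding genes alone gave 0 genes for genotype and 0 between days 16 and 19. Leaving out day 16 gave 2 genes for genotype and leaving out day 28 gave 1. The fit already pairs the 2 libraries of a day through its day term, and without that term limma called 0 members for genotype. The labels carry no replicate numbers for another block. The cause of these shifts was not tested. With 1 library per genotype and day, no difference at a single day has an error.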

Other observations

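The members form 4 close pairs of ligand genes on mm10. Wnt10b and Wnt1 lie 11.7 kb apart on chromosome 15 in opposite orientation, and Wnt1 did not exceed 0.0332 FPKM where Wnt10b reached 15.7 FPKM. Wnt9b and Wnt3 lie 24.3 kb apart on chromosome 11, with at most 0.0941 FPKM for Wnt9b and 7.99 FPKM for Wnt3. Wnt6 and Wnt10a lie 6.19 kb apart on chromosome 1 on the same strand. Between days 0 and 16 Wnt6 had the lower level at day 16 and Wnt10a the higher one in both genotypes. Wnt3a and Wnt9a lie 16.2 kb apart on chromosome 11, and both were found at low levels in each library.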
